A study of Mus musculus with 10 samples.

Results

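The comparison described here is that of ileal crypts from mice with Stat5 deleted in the intestinal epithelium (KO, 2 libraries) with crypts from control mice (Ctrl, 3 libraries). These 5 libraries were taken by their titles from the 10 of the series, and all 13056 genes with a deposited value of at least 1 TPM in at least 2 of the 10 libraries, of 28987 genes in the files, were compared. Both groups are labelled with the genotype name VilCreER;Stat5, followed by STAT5+/+ for Ctrl and STAT5IEC-/- for KO, and all mice as male, C57Bl6 and 12 weeks old. VilCreER is a Cre recombinase that is driven by the villin promoter, active in intestinal epithelial cells, and that depends on an oestrogen receptor ligand for its activity. The labels do not say which ligand was given or when, nor which exons are removed. Crypts were shaken off the tissue in 10 mM EDTA at 37 C for 30 min, and total RNA was sequenced single-end. Whether each library is a different mouse is not stated, so p-values measure only the spread between these libraries, which may be technical. The 5 remaining libraries, from mice labelled Stat5 OE, are not compared here. They entered the gene filter, the scaling of the libraries and the estimate of how much genes vary between libraries of a group.

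STAT5A and STAT5B are closely related transcription factors that lie latent in the cytoplasm. Receptors for growth hormone, prolactin, erythropoietin and several interleukins activate JAK kinases, which phosphorylate STAT5. The phosphorylated dimers enter the nucleus and bind the palindrome TTCNNNGAA near target genes, among them the feedback inhibitors Cish and the Socs genes. Crypts of the small intestine hold Lgr5-positive stem cells, dividing progenitors and Paneth cells, which release antimicrobial proteins and feed the stem cells with Wnt ligands and other signals. Cells leaving the crypt become absorptive enterocytes, goblet, enteroendocrine or tuft cells. The title of the study asks about STAT5 in Paneth cells and about Wnt3a, Tcf7l2 (Tcf4), Sox9 and Gfi1.

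Values are deposited TPM divided by a factor for each library, called scaled TPM (the factors are described with the processing). As deposited, the median gene was 0.38 higher in KO on the log2 scale. TPM are relative to transcript length and do not preserve read counts, so sequencing depth is unknown. Two-sided tests were made with limma on log2(scaled TPM + 1). Log2 differences are KO minus Ctrl on that scale, with 95% intervals in brackets, and understate the change of genes with low values. The standard error was 0.422 for the median gene.

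Ctrl 2 stood apart from the other 4 libraries before any comparison. Mitochondrially encoded genes made up 83.7% of its TPM, against 45.1% to 53.8% in the others. The short gene mt-Atp8 alone held 55.2% of TPM in Ctrl 2. It held 28.0% in Ctrl 1, 19.7% in Ctrl 3, 22.5% in KO 1 and 37.7% in KO 2. TPM are relative to transcript length, so these percentages are not shares of RNA. In Ctrl 2, 8263 genes reached 1 TPM, against 11115 to 11867 in the others. Across genes, which are not independent replicates, the Spearman correlation of Ctrl 2 with the other 4 libraries was 0.778 to 0.828. Among those 4 it was 0.873 to 0.935, and the closest pair was Ctrl 1 with KO 2, across the groups. Ctrl 1 with Ctrl 3 gave 0.902 and KO 1 with KO 2 gave 0.905, so the 2 KO libraries were no closer to each other than each was to Ctrl 1. Ctrl 3 went against its label among these 5 libraries. Its summed level of 4 genes of the Y chromosome (Uty, Kdm5d, Eif2s3y and Ddx3y) was 2.60 scaled TPM, against 73.4 to 123 in the other 4 libraries, although all mice are labelled male. OE 3 and OE 4, also labelled male, were lower still, at 0.210 and 0.116. Medians of gene lists are therefore given with all libraries, without Ctrl 2 and without Ctrl 3, and differences of single genes with and without Ctrl 2. Epithelial markers were high in all 5 libraries. Epcam, an adhesion molecule, was at 344, 491 and 487 in Ctrl and 419 and 353 in KO, and Krt8, an epithelial keratin, at 1010.0, 604 and 1651 in Ctrl and 1571 and 981 in KO. The stem cell gene Olfm4 was at 237, 49.4 and 319 in Ctrl and 153 and 198 in KO, and the Paneth cell defensin Defa24 at 2188, 135 and 1488 in Ctrl and 991 and 1766 in KO, both lowest in Ctrl 2.

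No gene passed the threshold of an adjusted p of 0.05 in limma, with 0 higher and 0 lower in KO, 0.0% of the genes tested. The smallest adjusted p in limma was 0.943, and 1 without Ctrl 2. At an unadjusted p under 0.05 in limma there were 253 genes higher (1.94%) and 197 lower (1.51%), together 450 (3.45%), and without Ctrl 2 there were 292 (2.24%, with 1.26% higher and 0.973% lower). Log2 differences were above 0 for 53.0% and below 0 for 46.8% of genes, and for 50.7% and 49.0% without Ctrl 2. Both KO libraries lay above every Ctrl library for 1187 genes (9.09%) and below every Ctrl library for 949 (7.27%). As deposited, without scaling, these counts were 1102 (8.44%) and 192 (1.47%). Without Ctrl 2 the counts were 1828 (14.0%) and 1705 (13.1%), and without Ctrl 3 they were 2174 (16.7%) and 1756 (13.4%), with fewer libraries to lie outside of. The direction of the difference turned over for 3213 genes, 24.6%, when Ctrl 2 was left out. Of the 1187 genes 770 (5.9%) were also above as deposited, and of the 949 genes 162 (1.24%) were also below. Statements below that KO lay above or below Ctrl refer to scaled values. What follows gives levels by library, and no gene described below was called as changed. A gene that reached 1 TPM in a single group passed the filter through that group, so counts over list members describe the list and are no test.

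Stat5a (ENSMUSG00000004043, chromosome 11, 100859351 to 100885169 in mm10) gave levels of 1.49, 2.55 and 1.05 in Ctrl 1, 2 and 3 and 0.626 and 0.330 in KO 1 and 2. Stat5b (ENSMUSG00000020919, chromosome 11, 100780731 to 100850724) was at 1.69, 1.73 and 0.953 in Ctrl 1, 2 and 3 and 0.473 and 0.422 in KO 1 and 2. In scaled values the KO libraries were the lowest 2 for both genes. Without scaling, KO 1 lay above Ctrl 2. Deposited TPM of Stat5a were then 1.85, 0.765 and 1.40 in Ctrl and 0.771 and 0.352 in KO, and those of Stat5b were 2.10, 0.517 and 1.27 in Ctrl and 0.583 and 0.451 in KO. Which part of either gene the deletion removes is not given, so these levels check the labels only in part. The log2 difference of Stat5a was -0.84 (-1.62 to -0.050) and -0.62 without Ctrl 2, and that of Stat5b was -0.75 (-1.66 to 0.17) and -0.66 without Ctrl 2. A two-sided exact permutation test gave p = 0.2 for Stat5a and 0.2 for Stat5b, and the 10 splits of 3 against 2 allow no p below 0.1. Stat5a and Stat5b were expressed at low levels in every library, and transcripts of both remained in KO. In bulk tissue, fewer cells of a type and less RNA per cell cannot be told apart, and crypt preparations can hold cells in which VilCreER is not active.

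Genes around Stat5a and Stat5b were measured as well. Stat3 (ENSMUSG00000004040, chromosome 11, 100885098 to 100939540), whose annotated end overlaps that of Stat5a, had levels of 79.3, 109 and 93.9 in Ctrl 1, 2 and 3 and 65.5 and 65.5 in KO 1 and 2, with KO below all 3 Ctrl libraries. Reads in the overlap cannot be assigned with certainty, since the use of strand in counting is not given. Atp6v0a1, a subunit of the vacuolar proton pump, was at 69.2, 117 and 62.8 in Ctrl and 55.8 and 51.9 in KO, and Naglu, a lysosomal glucosaminidase, at 3.12, 6.01 and 5.68 in Ctrl and 2.55 and 3.11 in KO, with KO again below Ctrl for both. Ghdc, the gene on the other side of Stat5b, overlapped between the groups at 3.56, 5.47 and 6.63 in Ctrl and 5.05 and 1.14 in KO, and so did Cavin1, which shapes caveolae, at 1.68, 0.507 and 0.479 in Ctrl and 0.986 and 1.05 in KO. Of the 7 genes of this stretch that were tested, Stat5a and Stat5b included, 5 had KO below every Ctrl library in scaled values. These were Stat5a and Stat5b themselves and the neighbours Stat3, Atp6v0a1 and Naglu. As deposited 0 did. The shares of all genes were 7.27% in scaled values and 1.47% as deposited.

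**Figure D1:**
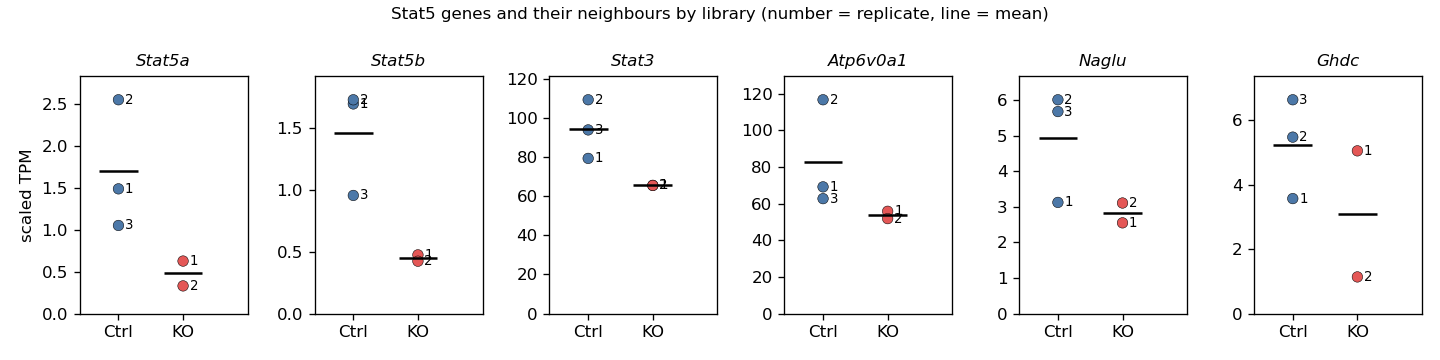
Scaled TPM (vertical axes, each from 0) of Stat5a, Stat5b and 4 genes around them in the 3 Ctrl (blue) and 2 KO (red) libraries, with replicate numbers beside the points and group means as lines. KO lies below all Ctrl libraries for Stat5a, Stat5b, Stat3, Atp6v0a1 and Naglu, and the groups overlap for Ghdc.

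Target genes of STAT5 were described as a list. Of 20 genes listed as targets, 18 passed the filter, 7 had a positive and 11 a negative log2 difference, and the median was -0.11 (-0.093 without Ctrl 2, 0.080 without Ctrl 3). Over all genes the median was 0.037 (0.0061 without Ctrl 2, 0.072 without Ctrl 3). Cish, the feedback inhibitor most often used as a readout of STAT5, was at 2.36, 2.72 and 7.46 in Ctrl 1, 2 and 3 and 5.20 and 1.17 in KO 1 and 2, and the groups overlapped. Socs2, which restrains growth hormone signalling, was the most abundant listed target at 143, 45.2 and 80.0 in Ctrl 1, 2 and 3 and 102 and 141 in KO 1 and 2, and its KO libraries lay within the Ctrl range. Socs3 was at 12.4, 55.9 and 8.50 in Ctrl and 13.4 and 18.6 in KO, the kinase Pim1 at 11.7, 23.4 and 5.33 in Ctrl and 6.44 and 8.82 in KO and the survival gene Bcl2l1 at 6.80, 25.6 and 7.12 in Ctrl and 11.6 and 6.03 in KO, each with its highest value in Ctrl 2. Among the 18 targets tested, 1 had KO above every Ctrl library and 2 had KO below, near the 9.09% and 7.27% of all genes. The first was Ccnd1, which encodes cyclin D1, at 35.3, 4.89 and 24.2 in Ctrl 1, 2 and 3 and 39.1 and 59.8 in KO 1 and 2, and had a log2 difference of 1.49 (0.079 to 2.91) and 0.71 without Ctrl 2. Myc was at 7.34, 0.618 and 10.2 in Ctrl and 7.69 and 7.30 in KO, low in Ctrl 2 alone. Below every Ctrl library were Cdkn1a, the cell cycle inhibitor p21, at 37.5, 78.9 and 57.1 in Ctrl and 35.6 and 30.7 in KO, and Dusp5, a phosphatase of ERK, at 1.23, 7.54 and 2.37 in Ctrl 1, 2 and 3 and 0.943 and 0.582 in KO 1 and 2. The log2 difference of Dusp5 was -1.19 (-2.34 to -0.047) and -0.64 without Ctrl 2. Igf1, a growth factor induced by STAT5 in liver, was at 0.592, 0.00609 and 0.118 in Ctrl and 3.16 and 0.152 in KO, high in KO 1 alone.

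The palindrome TTCNNNGAA was searched in RefSeq promoter windows of 300 bases (250 before and 50 after the gene start, GRCm38.p6). It reads the same on both strands, so a search of a single strand covers both. It occurred in 2726 of 32851 windows, 8.30%. The following stretches show the matches, in capitals, in the windows of 3 listed targets and of Reg3b and Cpt2, whose levels are described below, and were chosen because they hold a match. Bcl6 has a second window (chr16:23988803-23989102), with 1 match, which is not shown. No match was found in the windows of the listed targets Socs1, Bcl2l1, Pim1, Pim2, Igf1, Mcl1, Cdkn1a, Tnfrsf13b, Dusp5 and Gadd45g. The windows of Stat5a, Stat5b, Reg3g, Inpp1, Lyz2, Pdk3, Saa1, Spp1 and Tmem125 were searched too and held none.
Cish: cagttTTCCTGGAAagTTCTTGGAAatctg
Socs3: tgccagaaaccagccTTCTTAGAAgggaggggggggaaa
Bcl6: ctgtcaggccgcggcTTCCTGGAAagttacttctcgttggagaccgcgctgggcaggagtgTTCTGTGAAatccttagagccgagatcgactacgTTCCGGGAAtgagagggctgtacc
Reg3b: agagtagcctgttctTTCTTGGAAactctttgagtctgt
Cpt2: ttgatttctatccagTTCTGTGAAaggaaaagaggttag
The Cish stretch lies at chr9:107296654-107296683 on the plus strand and begins its matches at bases 1 and 12 after the start. That of Socs3 is chr11:117969497-117969535 (minus strand), that of Bcl6 chr16:23981348-23981466 (minus), that of Reg3b chr6:78370741-78370779 (plus) and that of Cpt2 chr4:107923766-107923804 (minus), all before the start. These 5 genes had unlike levels. Cish and Socs3 overlapped between the groups, Bcl6, a repressor, was at 1.21, 3.41 and 1.47 in Ctrl and 1.94 and 1.42 in KO and overlapped too. Reg3b had Ctrl 3 close to KO and overlapped as deposited, and Cpt2 was lower in KO. Symbols of 9498 tested genes matched a window. The 801 genes with a match had a median log2 difference of 0.035 and the 8697 without a match 0.033, and without Ctrl 2 these medians were -0.012 and 0.0044. KO lay above every Ctrl library for 7.99% of genes with a match and 9.06% of genes without, and below for 6.87% and 7.82%. A match is a description of letters in a window and shows no binding.

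Of 20 listed receptors and kinases upstream of STAT5, 15 passed the filter, with 6 positive and 9 negative log2 differences and a median of -0.059 (-0.0037 without Ctrl 2, 0.11 without Ctrl 3). The prolactin receptor Prlr was at 32.9, 58.1 and 33.0 in Ctrl 1, 2 and 3 and 33.2 and 30.1 in KO 1 and 2, with Ctrl 2 alone higher. The growth hormone receptor Ghr was low, at 1.87, 1.61 and 0.629 in Ctrl and 1.46 and 2.85 in KO, and the erythropoietin receptor Epor was listed at 0 in all 5 libraries. Jak1 was at 25.8, 34.8 and 20.4 in Ctrl and 22.0 and 27.2 in KO, and Jak2 at 17.8, 36.1 and 18.2 in Ctrl and 18.3 and 17.0 in KO. Tyk2 was at 7.27, 10.8 and 10.1 in Ctrl and 8.76 and 6.12 in KO. Il22ra1, the epithelial receptor subunit for interleukin 22, was at 22.3, 28.3 and 17.6 in Ctrl 1, 2 and 3 and 14.1 and 15.3 in KO 1 and 2, with KO below all Ctrl libraries. Among the other STAT genes, Stat6, which carries interleukin 4 and 13 signals, was at 47.4, 89.6 and 89.6 in Ctrl 1, 2 and 3 and 48.8 and 27.3 in KO 1 and 2, and KO 1 lay within the Ctrl range. Its log2 difference was -0.97 (-1.83 to -0.11) and -0.82 without Ctrl 2. Pias4, an inhibitor of STATs that attaches SUMO, was at 24.9, 11.2 and 22.8 in Ctrl and 10.7 and 6.69 in KO.

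Among protein-coding genes, KO lay above every Ctrl library for 346 and below for 81, both scaled and as deposited, when the higher group had a mean of 5 scaled TPM or more. Over all genes tested the shares separated on both scales were 5.9% and 1.24%. The 12 with the smallest p in each direction are given. They were picked for lying apart, so their separation is no further evidence, and all had an adjusted p of 0.943 in limma. Highest in rank was Lyz2 (ENSMUSG00000069516, chromosome 10, 117277331 to 117282321), the lysozyme of macrophages, at 10.1, 10.5 and 2.35 in Ctrl 1, 2 and 3 and 168 and 102 in KO 1 and 2. Its log2 difference was 4.13 (1.95 to 6.30) and 4.43 without Ctrl 2, and its near copy Lyz1, a Paneth cell product, was at 2151, 82.5 and 566 in Ctrl and 576 and 2548 in KO, and reads may be shared between them. Pdk3, a kinase that shuts pyruvate dehydrogenase, was at 17.4, 11.2 and 15.2 in Ctrl 1, 2 and 3 and 29.3 and 35.7 in KO 1 and 2, a log2 difference of 1.12 (0.52 to 1.72) and 0.95 without Ctrl 2. Tmem125, which encodes a membrane protein, was at 22.8, 16.1 and 24.8 in Ctrl 1, 2 and 3 and 68.9 and 90.2 in KO 1 and 2, a log2 difference of 1.87 (0.76 to 2.97) and 1.69 without Ctrl 2. The 2 KO libraries differed less from each other than from any Ctrl library for Pdk3 and Tmem125.

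Ptpn4, a tyrosine phosphatase, was at 3.36, 0.603 and 1.89 in Ctrl and 7.68 and 10.7 in KO, with a log2 difference of 1.89 (0.74 to 3.04) and 1.51 without Ctrl 2. Saa1, a serum amyloid A of the acute phase that gut epithelium also makes, was at 4.71, 0 and 20.2 in Ctrl 1, 2 and 3 and 63.0 and 216 in KO 1 and 2. Its log2 difference was 4.57 (1.70 to 7.44) and 3.42 without Ctrl 2, and Ctrl values spanned 0 to 20.2 scaled TPM. Its relative Saa2, nearby on chromosome 7, was listed at 0, 0 and 1.34 in Ctrl and 0 and 0 in KO. How reads were split between Saa1 and Saa2 is not given. Spp1, which encodes osteopontin, was at 0.304, 0.0345 and 0 in Ctrl and 27.3 and 9.15 in KO, and Fcgr2b, the inhibitory Fc receptor of B cells and macrophages, at 0.932, 0.138 and 0 in Ctrl and 8.42 and 2.43 in KO. The log2 difference of Spp1 was 3.94 (1.43 to 6.45) and 3.89 without Ctrl 2. That of Fcgr2b was 2.13 (0.63 to 3.62) and 2.03 without Ctrl 2. Esr1, the oestrogen receptor alpha, was at 2.43, 0 and 1.96 in Ctrl and 7.47 and 3.89 in KO, with a log2 difference of 1.57 (0.45 to 2.69) and 1.01 without Ctrl 2.

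The others in this direction act inside the cell. Katna1, a subunit of the microtubule-severing katanin, was at 16.2, 15.1 and 22.4 in Ctrl and 29.4 and 37.2 in KO. Its log2 difference was 0.87 (0.31 to 1.43) and 0.77 without Ctrl 2. Smu1, a splicing factor, was at 47.1, 38.8 and 50.9 in Ctrl and 81.4 and 146 in KO, with a log2 difference of 1.25 (0.40 to 2.09) and 1.14 without Ctrl 2. Hnrnpk, an RNA-binding protein, was at 39.8, 42.0 and 37.2 in Ctrl and 58.2 and 78.4 in KO, with a log2 difference of 0.75 (0.22 to 1.29) and 0.79 without Ctrl 2. Slc25a53, of the mitochondrial carrier family, was at 2.02, 0.380 and 1.06 in Ctrl and 3.84 and 7.01 in KO, with a log2 difference of 1.60 (0.55 to 2.65) and 1.32 without Ctrl 2. Katna1, Smu1 and Hnrnpk were well above 0 in all 5 libraries, while Slc25a53 was low in Ctrl 2.

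On the lower side, Cpt2 (ENSMUSG00000028607, chromosome 4, 107903981 to 107923610), the inner mitochondrial carnitine palmitoyltransferase needed for long-chain fatty acid oxidation, was at 19.6, 39.3 and 32.5 in Ctrl 1, 2 and 3 and 9.23 and 6.16 in KO 1 and 2. Its log2 difference was -1.82 (-2.69 to -0.96) and -1.62 without Ctrl 2. Inpp1, an inositol phosphatase, was at 3.27, 9.36 and 5.79 in Ctrl 1, 2 and 3 and 0.222 and 1.49 in KO 1 and 2, a log2 difference of -1.94 (-3.01 to -0.87) and -1.63 without Ctrl 2. Slc28a1, a concentrative nucleoside transporter of the brush border, was at 8.23, 68.1 and 16.3 in Ctrl 1, 2 and 3 and 2.18 and 0.197 in KO 1 and 2, a log2 difference of -3.51 (-5.55 to -1.48) and -2.69 without Ctrl 2. Ctrl 2 was the highest library for all 3.

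Iyd, an iodotyrosine deiodinase, was at 3.41, 17.1 and 4.02 in Ctrl and 1.07 and 0.349 in KO, with a log2 difference of -2.14 (-3.56 to -0.73) and -1.49 without Ctrl 2. Mbl2, a mannose-binding lectin of innate defence, was at 3.30, 10.3 and 1.79 in Ctrl and 0 and 0.400 in KO, with a log2 difference of -2.12 (-3.69 to -0.55) and -1.55 without Ctrl 2. Mov10, an RNA helicase that restrains retroelements, was at 10.2, 28.0 and 12.3 in Ctrl and 3.25 and 7.17 in KO, with a log2 difference of -1.47 (-2.48 to -0.46) and -1.05 without Ctrl 2. Sidt2, a lysosomal membrane protein, was at 96.8, 447 and 129 in Ctrl 1, 2 and 3 and 44.0 and 51.9 in KO 1 and 2, with a log2 difference of -1.87 (-3.26 to -0.48) and -1.21 without Ctrl 2. Cidec, which enlarges lipid droplets, was at 5.65, 49.5 and 7.24 in Ctrl and 0.269 and 1.09 in KO, with a log2 difference of -3.11 (-5.42 to -0.79) and -2.18 without Ctrl 2. Spg20 (spartin), also found at lipid droplets, was at 5.69, 13.3 and 9.32 in Ctrl and 2.86 and 2.64 in KO, with a log2 difference of -1.41 (-2.42 to -0.40) and -1.15 without Ctrl 2. Tmem219 was at 10.2, 29.1 and 11.5 in Ctrl and 6.15 and 3.27 in KO, with a log2 difference of -1.55 (-2.56 to -0.54) and -1.10 without Ctrl 2. Tmem110 was at 2.87, 8.38 and 5.19 in Ctrl and 1.18 and 1.65 in KO, with a log2 difference of -1.34 (-2.29 to -0.39) and -1.03 without Ctrl 2. Rab3a, a GTPase of secretory vesicles, was at 1.80, 9.59 and 3.91 in Ctrl and 0.871 and 1.14 in KO, with a log2 difference of -1.40 (-2.45 to -0.34) and -0.89 without Ctrl 2. All 12 lower genes had their highest Ctrl value in Ctrl 2. Their differences without Ctrl 2 had to be negative, since they were picked with KO below every Ctrl library.

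**Figure D2:**
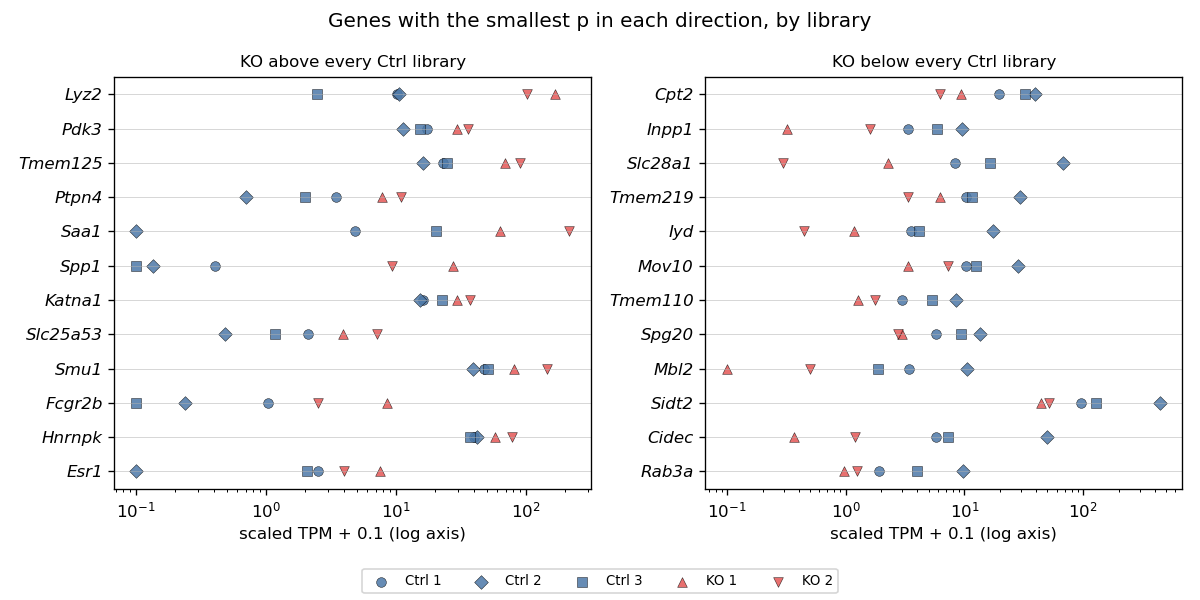
Scaled TPM plus 0.1 on a log axis in each of the 5 libraries for the 12 genes with the smallest p whose KO libraries (red triangles) lie above (left) or below (right) every Ctrl library (blue). Ctrl 2 (diamond) is the highest point of every gene on the right, and for Lyz2 KO reaches 102 and 168 against at most 10.5 in Ctrl.

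Antimicrobial and acute-phase genes of the epithelium were mixed. Of 23 listed genes 18 passed the filter, 11 of them positive and 7 negative, and 5 had KO above every Ctrl library, beside 9.09% of all genes. The list median was 0.34 (0.19 without Ctrl 2, 0.59 without Ctrl 3). Reg3g, a lectin that kills Gram-positive bacteria, was at 613, 225 and 653 in Ctrl 1, 2 and 3 and 1175 and 2459 in KO 1 and 2, a log2 difference of 1.92 (0.26 to 3.58) and 1.42 without Ctrl 2. Reg3b, its relative, was at 1181, 424 and 2717 in Ctrl 1, 2 and 3 and 2762 and 2840.1 in KO 1 and 2, where Ctrl 3 came close to KO. Reg3 genes are near copies of each other, and how reads were split between them is not given. Cxcl5, a chemokine that draws neutrophils, was listed at 0 in all 3 Ctrl libraries and was at 3.93 and 4.06 in KO. Its log2 difference was 2.32 (1.45 to 3.19) and 2.32 without Ctrl 2. Lcn2, which withholds siderophore iron from bacteria, was below 1 scaled TPM everywhere, at 0.0680, 0.466 and 0 in Ctrl and 0.797 and 0.560 in KO. Other members overlapped. Duox2, an oxidase of the mucosal barrier, was at 97.4, 33.5 and 256 in Ctrl and 133 and 83.6 in KO, Nos2 at 10.6, 6.36 and 7.17 in Ctrl and 3.42 and 20.4 in KO, and Retnlb, a goblet cell defence lectin, at 1.34, 0 and 66.4 in Ctrl and 14.8 and 0.485 in KO. Reg1 was at 3.55, 526 and 2.44 in Ctrl and 2.97 and 3.52 in KO and thus high in Ctrl 2 alone.

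Markers of macrophages, B cells and fibroblasts had members with KO above every Ctrl library, and their part in the values above was not tested. Of 20 macrophage and dendritic cell genes 14 passed the filter, 13 with positive differences, and 7 had KO above every Ctrl library, beside 9.09% of all genes. The median was 0.84 (0.82 without Ctrl 2, 0.80 without Ctrl 3), and the summed level was 32.3, 46.4 and 14.8 in Ctrl and 211 and 130.0 in KO, of which Lyz2 makes up most in KO. Tyrobp, an adaptor of myeloid receptors, was at 0.202, 0 and 0.803 in Ctrl 1, 2 and 3 and 2.75 and 1.65 in KO 1 and 2, a log2 difference of 1.28 (0.28 to 2.28) and 1.10 without Ctrl 2. C1qc, a complement gene of tissue macrophages, was listed at 0 in all Ctrl libraries and was at 2.04 and 0.918 in KO. The receptor Csf1r was at 0.157, 0.489 and 0.0776 in Ctrl and 2.88 and 0.569 in KO, while Adgre1 (F4/80) stayed below the filter at 0.0242, 0.499 and 0.125 in Ctrl and 0.904 and 0.605 in KO and Cd209a was listed at 0 in all 5 libraries.

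B and plasma cell genes were mixed. Of 17 listed genes 13 passed the filter, 10 positive, with a median of 0.50 (0.71 without Ctrl 2, 0.49 without Ctrl 3) and a summed level of 193, 122 and 34.5 in Ctrl and 239 and 74.7 in KO. KO 2 lay below Ctrl 1 and Ctrl 2 in this sum. KO lay above every Ctrl library for 5 of the 13, beside 9.09% of all genes, and below for 1, Derl3. Ms4a1 (CD20) was at 1.62, 0.0225 and 0 in Ctrl 1, 2 and 3 and 6.55 and 5.11 in KO 1 and 2. Its log2 difference was 2.29 (0.11 to 4.46) and 2.07 without Ctrl 2. Cd22 was at 0.244, 0.0237 and 0.0608 in Ctrl and 1.90 and 0.836 in KO. Other B cell genes overlapped, with KO 2 within the Ctrl range. Cd79a was at 0.819, 0 and 0 in Ctrl and 4.32 and 0.0956 in KO. Cd79b was at 0.924, 0 and 0.478 in Ctrl and 1.98 and 0.282 in KO, and Ighm at 0, 1.07 and 0 in Ctrl and 1.67 and 0 in KO. Cr2, the complement receptor of mature B cells and follicular dendritic cells, was at 0.492, 0 and 0 in Ctrl 1, 2 and 3 and 2.85 and 1.73 in KO 1 and 2, a log2 difference of 1.51 (0.35 to 2.67) and 1.41 without Ctrl 2. H2-Ob and H2-Oa, the class II accessory chains found in B cells, were at 1.36, 0 and 0 in Ctrl and 3.74 and 1.93 in KO and at 0.373, 0 and 0.0412 in Ctrl and 1.98 and 0.857 in KO. Among plasma cell genes, Jchain, of antibody-secreting cells, was at 24.7, 15.9 and 4.04 in Ctrl and 9.15 and 4.13 in KO, and Igkc at 160.3, 101 and 28.3 in Ctrl and 198 and 58.8 in KO. Derl3, an endoplasmic reticulum gene of secretory and plasma cells, was at 0.939, 0.991 and 1.06 in Ctrl 1, 2 and 3 and 0.138 and 0.0353 in KO 1 and 2, a log2 difference of -0.88 (-1.66 to -0.094) and -0.88 without Ctrl 2. MHC class II genes as a whole overlapped, with H2-Ab1 at 886, 738 and 519 in Ctrl and 467 and 1199.9 in KO. Cd74 was at 355, 423 and 343 in Ctrl and 272 and 514 in KO, and the median over 11 genes was 0.10 (0.13 without Ctrl 2, -0.050 without Ctrl 3).

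Fibroblast genes were high mainly in KO 1. Of 20 listed fibroblast and muscle genes 12 passed the filter, 9 positive and 3 negative, and the median was 0.94 (1.01 without Ctrl 2, 1.12 without Ctrl 3). The summed level was 31.4, 61.2 and 49.4 in Ctrl and 104 and 43.2 in KO, so KO 2 lay within the Ctrl range. Col3a1, a collagen, was at 0.658, 1.52 and 0.212 in Ctrl 1, 2 and 3 and 9.42 and 4.95 in KO 1 and 2, a log2 difference of 2.20 (0.12 to 4.27) and 2.47 without Ctrl 2. Col1a2 was at 0.113, 0.360 and 0.225 in Ctrl and 4.13 and 0.877 in KO, and Dcn at 1.27, 3.53 and 0.895 in Ctrl and 12.4 and 3.57 in KO. Sparc was at 1.36, 2.52 and 2.57 in Ctrl and 18.3 and 4.36 in KO, and for each KO 2 was closer to the nearest Ctrl library than to KO 1. Col1a1 was at 0.116, 11.5 and 4.25 in Ctrl and 13.5 and 2.03 in KO. Vim was at 6.71, 0.733 and 11.7 in Ctrl and 15.5 and 6.06 in KO. Both Col1a1 and Vim overlapped, with KO 2 within the Ctrl range. Among muscle genes, Acta2 did not pass the filter at 0.0931, 0.871 and 0.741 in Ctrl and 0.460 and 0.0760 in KO, and Myh11 was listed at 0 in 4 of the 5 libraries. Mylk, a myosin light chain kinase, was at 17.0, 37.6 and 19.1 in Ctrl and 14.97 and 16.3 in KO, with KO below every Ctrl library. Endothelial, blood and nerve markers were scarce, with 6 of 19 past the filter and a summed level of 41.9, 16.7 and 30.3 in Ctrl and 38.7 and 59.8 in KO.

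Of 23 listed genes of intraepithelial T cells 19 passed the filter, 14 negative and 5 positive, with a median of -0.55 (-0.58 without Ctrl 2, -0.46 without Ctrl 3), and 4 had KO below every Ctrl library, beside 7.27% of all genes. As deposited 0 did. Lck, the kinase of the T cell receptor, was at 7.97, 16.3 and 16.4 in Ctrl 1, 2 and 3 and 5.60 and 5.58 in KO 1 and 2. Cd8a was at 3.71, 6.37 and 6.63 in Ctrl and 0.951 and 3.07 in KO, the chemokine Ccl5 at 15.1, 12.7 and 41.1 in Ctrl and 4.73 and 11.3 in KO and Nkg7, a cytotoxic granule gene, at 5.85, 16.2 and 15.9 in Ctrl and 3.39 and 4.66 in KO, with KO below all Ctrl libraries. Gzmb, a granzyme, was at 4.92, 13.5 and 18.7 in Ctrl 1, 2 and 3 and 1.13 and 7.70 in KO 1 and 2, where KO 2 overlapped Ctrl 1, and had a log2 difference of -1.47 (-2.93 to -0.0054) and -1.33 without Ctrl 2. Cd3e was at 5.44, 2.87 and 11.7 in Ctrl and 1.11 and 3.76 in KO and overlapped, Trac at 6.71, 0 and 19.0 in Ctrl and 3.77 and 7.12 in KO did too, and Ptprc (CD45) did not pass the filter. The summed level of the list was 80.2, 232 and 224 in Ctrl and 43.8 and 101 in KO, and KO 2 lay above Ctrl 1. Of 10 pancreatic enzyme genes, a check for spilled tissue, 1 passed the filter.

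**Figure D3:**
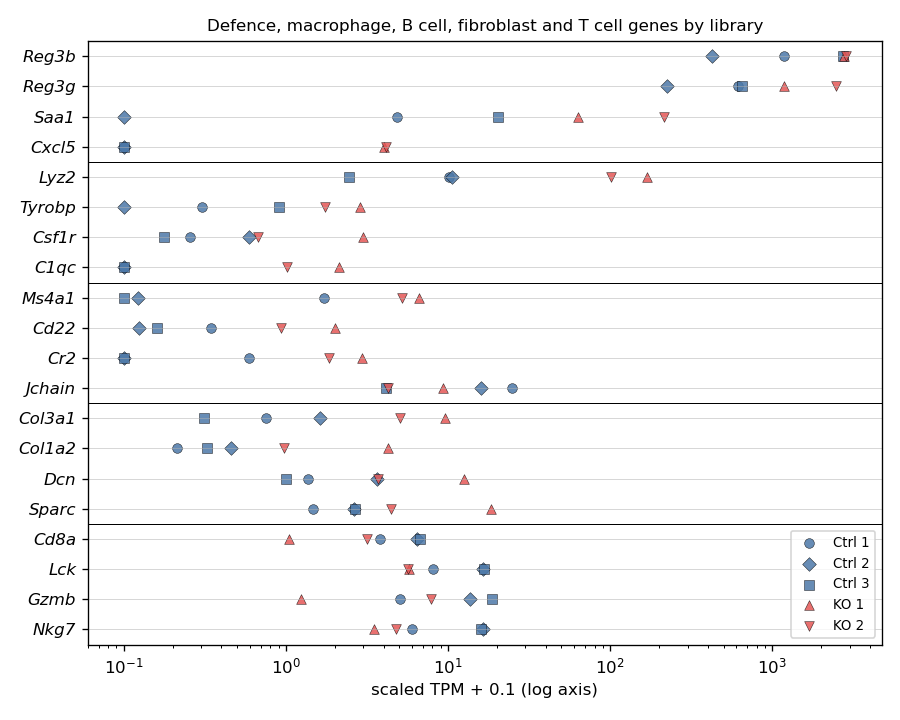
Scaled TPM plus 0.1 on a log axis in the 3 Ctrl (blue) and 2 KO (red) libraries for defence, macrophage, B cell, fibroblast and T cell genes, separated by lines. KO points lie to the right for most genes of the first 4 blocks except Jchain, and to the left for Cd8a, Lck and Nkg7. The genes shown are a selection, and Cd79a, Cd79b, Col1a1 and Vim, which overlap between the groups, are not among them.

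Absorptive lists were among those with the lowest medians, and these were near 0 without Ctrl 2. Of 26 genes of lipid uptake and lipoprotein assembly, all passing the filter, 26 were negative with all libraries and 16 without Ctrl 2, and the median was -0.72 (-0.068 without Ctrl 2, -1.44 without Ctrl 3). The mean level over the list, log2 of scaled TPM plus 1, was 5.46, 7.79 and 4.43 in Ctrl and 4.60 and 4.96 in KO, so KO lay between Ctrl 3 and Ctrl 1. Fabp1, a fatty acid binding protein of the proximal gut, was at 10.4, 758 and 2.28 in Ctrl 1, 2 and 3 and 2.45 and 3.17 in KO 1 and 2. Apoa4, an apolipoprotein of chylomicrons, was at 52.5, 2290.4 and 3.26 in Ctrl and 8.90 and 23.6 in KO, and Mttp, which loads them with lipid, at 206, 832 and 115 in Ctrl and 102 and 188 in KO. Of the 26 members, 2 had KO below every Ctrl library in scaled values, beside 7.27% of all genes. Apoc3, an inhibitor of lipoprotein lipase, was at 13.4, 249.9 and 2.24 in Ctrl 1, 2 and 3 and 0.0775 and 0.981 in KO 1 and 2, a log2 difference of -3.96 (-7.52 to -0.40) and -2.22 without Ctrl 2. Apoc2, its counterpart that activates the lipase, was at 15.2, 480.1 and 17.0 in Ctrl 1, 2 and 3 and 0.915 and 6.28 in KO 1 and 2, a log2 difference of -3.80 (-6.80 to -0.80) and -2.19 without Ctrl 2.

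Brush border enzymes followed. Of 25 genes 23 passed the filter, 22 of them negative with all libraries and 15 without Ctrl 2, with a median of -0.49 (-0.047 without Ctrl 2, -0.96 without Ctrl 3). Sucrase-isomaltase (Sis) was at 203, 792 and 103 in Ctrl 1, 2 and 3 and 147 and 244 in KO 1 and 2, aminopeptidase N (Anpep) at 945, 2280.1 and 624 in Ctrl and 573 and 650.5 in KO and lactase (Lct) at 32.3, 531 and 0 in Ctrl and 0.0790 and 0.423 in KO. Xpnpep2, a proline aminopeptidase of the brush border, was at 159, 216 and 129 in Ctrl 1, 2 and 3 and 76.6 and 41.2 in KO 1 and 2, a log2 difference of -1.53 (-2.61 to -0.46) and -1.34 without Ctrl 2, and the scaled KO values were the lowest 2. Vil1, the villin gene whose promoter drives the Cre, was at 171, 426 and 200.2 in Ctrl 1, 2 and 3 and 133 and 123 in KO 1 and 2, with KO below every Ctrl library.

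Of 28 nutrient transporters, all passing the filter, 22 were negative and 6 positive, and the median was -0.78 (-0.045 without Ctrl 2, -1.19 without Ctrl 3). KO lay below every Ctrl library for 6 and above for 1, beside 7.27% and 9.09% of all genes, and as deposited for 1 and 1. The glucose transporter Slc5a1 was at 192, 819 and 87.7 in Ctrl and 93.7 and 194 in KO, the peptide transporter Slc15a1 at 38.6, 198 and 13.0 in Ctrl and 12.6 and 23.3 in KO and the neutral amino acid transporter Slc6a19 at 215, 636 and 79.6 in Ctrl and 69.0 and 137 in KO, all overlapping. Slc9a3, a sodium-proton exchanger, was at 26.7, 49.4 and 19.1 in Ctrl and 10.4 and 16.7 in KO, and Slc7a9, of cystine uptake, at 188, 287 and 211 in Ctrl and 139 and 133 in KO, with KO below Ctrl. Slc40a1, which encodes ferroportin, the iron exporter of enterocytes and macrophages, went the other way at 7.38, 1.08 and 7.54 in Ctrl 1, 2 and 3 and 29.8 and 27.0 in KO 1 and 2, a log2 difference of 2.47 (0.69 to 4.25) and 1.80 without Ctrl 2.

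Xenobiotic enzymes had a median of -0.81 (-0.011 without Ctrl 2, -1.34 without Ctrl 3) over 32 genes, of which 28 were negative with all libraries and 16 without Ctrl 2. Cyp3a11 was at 104, 1236 and 0.239 in Ctrl 1, 2 and 3 and 8.14 and 23.0 in KO 1 and 2, so both KO libraries lay between Ctrl 3 and Ctrl 1. Gstm1, a glutathione transferase, was at 8.36, 63.8 and 10.98 in Ctrl 1, 2 and 3 and 4.61 and 4.25 in KO 1 and 2, a log2 difference of -1.84 (-3.61 to -0.059) and -0.96 without Ctrl 2. Transcripts encoded in mitochondria were all 13 negative with Ctrl 2 and 9 of 13 without it, with a median of -0.96 (-0.085 without Ctrl 2, -1.41 without Ctrl 3). The cytochrome oxidase gene mt-Co1 was at 8608, 79824 and 10100.3 in Ctrl and 11098 and 7452 in KO. Nuclear genes of the respiratory chain had a median of -0.14 (0.018 without Ctrl 2, -0.18 without Ctrl 3) over 46 genes, with Sdha at 1214, 1176 and 1349 in Ctrl and 1334 and 1268 in KO. Cox5a was at 722, 916 and 660.0 in Ctrl and 840.5 and 1338 in KO.

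**Figure D4:**
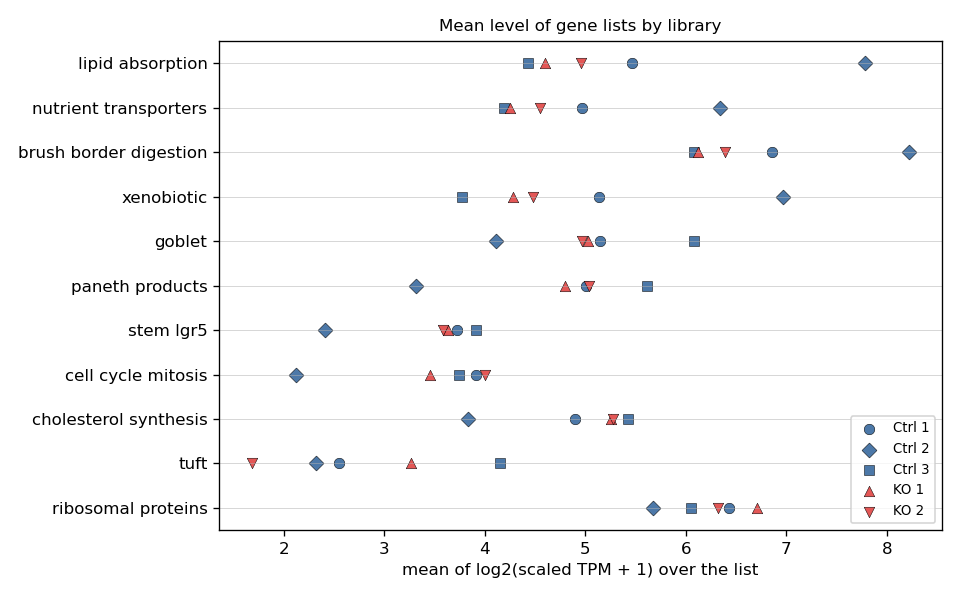
Mean of log2(scaled TPM + 1) over each gene list (horizontal axis) in the 3 Ctrl (blue) and 2 KO (red) libraries. Ctrl 2 (diamond) is highest for the 4 absorptive lists and lowest for the goblet, Paneth, stem cell, cell cycle, cholesterol and ribosomal lists, and KO lies between Ctrl 3 and Ctrl 1 for all 4 absorptive lists.

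Metabolic genes beside absorption were mixed. Of 28 fatty acid oxidation genes that passed the filter, 12 were positive and 16 negative, with a median of -0.094 (0.12 without Ctrl 2, -0.12 without Ctrl 3). Beside Cpt2, the other carnitine genes listed overlapped, with Cpt1a at 29.8, 24.4 and 40.5 in Ctrl and 41.0 and 33.2 in KO, and Crat at 19.9, 131 and 40.1 in Ctrl and 25.6 and 11.3 in KO. Slc25a20 was at 16.1, 29.5 and 35.3 in Ctrl and 25.7 and 16.6 in KO. The dehydrogenases Acadm at 67.5, 90.8 and 49.7 in Ctrl and 70.1 and 81.7 in KO. Acadvl was at 53.0, 98.0 and 63.5 in Ctrl and 71.5 and 96.5 in KO overlapped. Decr2, a peroxisomal reductase, was at 26.6, 30.6 and 28.6 in Ctrl 1, 2 and 3 and 23.3 and 9.47 in KO 1 and 2, a log2 difference of -0.89 (-1.65 to -0.13) and -0.84 without Ctrl 2. In pyruvate entry, the other kinases of the Pdk3 family overlapped. Pdk1 was at 48.8, 20.02 and 39.7 in Ctrl and 40.2 and 35.6 in KO. Pdk2 was at 19.1, 117 and 16.3 in Ctrl and 20.6 and 14.7 in KO, and Pdk4 did not pass the filter. Pdha1, the enzyme subunit they phosphorylate, was at 84.5, 83.6 and 104 in Ctrl and 105 and 91.4 in KO and overlapped. Pck1, of gluconeogenesis, was at 4.45, 65.6 and 9.05 in Ctrl and 2.24 and 2.52 in KO, with KO below every Ctrl library.

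Glycolysis had a median of -0.43 (-0.41 without Ctrl 2, -0.34 without Ctrl 3) over 20 genes, 15 negative with all libraries and 16 without. Khk, which starts fructose breakdown, was at 24.6, 145 and 14.3 in Ctrl 1, 2 and 3 and 11.6 and 10.6 in KO 1 and 2, with KO below every Ctrl library. Pgam1 was at 44.9, 41.2 and 53.2 in Ctrl and 35.4 and 20.7 in KO and Pfkfb3, which makes the activator of phosphofructokinase, at 2.71, 0.465 and 3.06 in Ctrl and 0.385 and 0.446 in KO. Cholesterol synthesis had 21 of 24 genes positive and a median of 0.57 (0.033 without Ctrl 2, 0.79 without Ctrl 3). Stard4, a sterol carrier, was at 56.6, 47.8 and 44.2 in Ctrl 1, 2 and 3 and 63.2 and 90.1 in KO 1 and 2, a log2 difference of 0.61 (0.027 to 1.18) and 0.58 without Ctrl 2. Insig1, a sensor of sterols, was at 43.9, 33.6 and 41.8 in Ctrl and 47.4 and 64.4 in KO, and Sc5d, of late cholesterol synthesis, at 39.7, 41.9 and 30.6 in Ctrl and 43.3 and 60.3 in KO, both with KO above every Ctrl library.

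The ileal bile acid axis had 16 of 19 genes past the filter and a median of -0.24 (0.10 without Ctrl 2, -0.23 without Ctrl 3). Slc10a2, the apical bile acid transporter that marks the ileum, was at 30.3, 1.11 and 32.7 in Ctrl 1, 2 and 3 and 40.6 and 54.7 in KO 1 and 2, with KO above every Ctrl library and Ctrl 2 near 1. Fabp6, which carries bile acids in the cell, was at 471, 40.8 and 726 in Ctrl and 592 and 239.7 in KO, and Fgf15, the hormone released on their uptake, at 14.3, 2.62 and 4.50 in Ctrl and 6.64 and 3.44 in KO. Their receptor Nr1h4 (FXR) was at 26.0, 14.6 and 51.6 in Ctrl and 51.7 and 35.9 in KO. Gata4, a factor of the proximal small intestine, was at 19.4, 61.9 and 5.09 in Ctrl and 7.15 and 21.2 in KO, with its highest value in Ctrl 2. Fabp1, Lct, Gata4 and Onecut2 (at 0.0780, 9.06 and 0 in Ctrl and 0.167 and 0.382 in KO), which decline along the small intestine, were all highest in Ctrl 2, where the ileal genes Slc10a2 and Fabp6 were lowest. The part of the sampled position in the differences from Ctrl 2 was not tested. Cdx2 at 59.5, 64.9 and 55.2 in Ctrl and 66.5 and 67.5 in KO. Hnf4a was at 80.4, 63.4 and 92.9 in Ctrl and 80.6 and 79.5 in KO, which maintain intestinal identity, had narrow ranges across all 5 libraries.

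Paneth cell products had 12 positive and 8 negative of 20 that passed the filter, and a median of 0.29 (-0.26 without Ctrl 2, 1.20 without Ctrl 3). Mmp7, which activates pro-defensins, was at 62.7, 3.36 and 89.4 in Ctrl 1, 2 and 3 and 37.3 and 152 in KO 1 and 2. Pla2g2a, a phospholipase gene annotated in mouse as a polymorphic pseudogene, was at 15.7, 0 and 16.3 in Ctrl and 15.2 and 9.58 in KO. Its transcript level therefore does not show that an active enzyme is made. Itln1, an intelectin, was at 744, 121 and 1037 in Ctrl and 329 and 1069 in KO, and Ang4, a bactericidal angiogenin, at 151, 21.9 and 753 in Ctrl and 203 and 121 in KO. In each of these genes Ctrl 2 was the lowest library, and at least 1 KO library lay below both Ctrl 1 and Ctrl 3. Goblet genes had a median of -0.043 (-0.58 without Ctrl 2, 0.55 without Ctrl 3) over 20 genes. Muc2, the gel-forming mucin, was at 494, 139 and 1024 in Ctrl 1, 2 and 3 and 310.4 and 431 in KO 1 and 2, Clca1 at 158, 49.1 and 1222 in Ctrl and 142 and 141 in KO, Agr2 at 478, 108 and 1130.1 in Ctrl and 358 and 479 in KO and Tff3, a trefoil peptide, at 366, 386 and 377 in Ctrl and 331 and 410.2 in KO. Ctrl 3 was the highest library for Muc2, Clca1 and Agr2.

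Tuft cell genes had 16 of 18 negative, with a median of -0.56 (-0.83 without Ctrl 2, 0.11 without Ctrl 3). Dclk1 was at 7.55, 2.68 and 27.7 in Ctrl 1, 2 and 3 and 12.9 and 2.02 in KO 1 and 2 and Trpm5, their cation channel, at 11.4, 8.35 and 36.0 in Ctrl and 19.7 and 2.51 in KO, so KO 2 was the lowest library and Ctrl 3 the highest while KO 1 lay above Ctrl 1. Enteroendocrine genes had a median of -0.065 (0.028 without Ctrl 2, -0.25 without Ctrl 3) over 13 of 22 genes, with Chga at 5.84, 5.56 and 1.74 in Ctrl and 3.08 and 6.79 in KO. Gcg was at 15.6, 1.88 and 10.8 in Ctrl and 8.63 and 20.1 in KO. Among lineage regulators, Atoh1, the switch to secretory fate, was at 5.59, 2.23 and 21.8 in Ctrl and 7.62 and 8.17 in KO, Hes1, its Notch-driven repressor, at 26.1, 12.5 and 19.0 in Ctrl and 28.0 and 19.9 in KO and Spdef, of goblet and Paneth maturation, at 16.3, 10.2 and 26.6 in Ctrl and 19.9 and 12.7 in KO. All 3 overlapped. Klf4, of goblet and differentiated cells, was at 52.4, 71.5 and 40.9 in Ctrl and 24.8 and 40.4 in KO. Hes6 was at 7.90, 14.7 and 11.01 in Ctrl and 6.71 and 6.49 in KO, both with KO below every Ctrl library.

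For the genes of the title, Sox9 was at 13.0, 3.06 and 18.5 in Ctrl 1, 2 and 3 and 12.9 and 15.7 in KO 1 and 2, and its log2 difference was 0.56 (-0.71 to 1.82) and -0.12 without Ctrl 2. Gfi1 was at 2.55, 0 and 2.48 in Ctrl 1, 2 and 3 and 1.89 and 2.21 in KO 1 and 2, and its log2 difference was 0.40 (-1.03 to 1.82) and -0.21 without Ctrl 2. Both KO libraries lay below Ctrl 1 and Ctrl 3 for Gfi1, and Ctrl 2 was at 0. Tcf7l2 was at 15.1, 17.1 and 13.9 in Ctrl 1, 2 and 3 and 9.52 and 16.6 in KO 1 and 2, and its log2 difference was -0.26 (-0.95 to 0.43) and -0.19 without Ctrl 2. Without KO 1 it was 0.11. For Wnt3a the files give 0 in each of the 5 libraries. The Paneth cell ligand Wnt3 stayed below the filter at 0.205, 0 and 0.318 in Ctrl and 0.150 and 0.265 in KO.

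Lgr5 target and stem cell genes had 11 of 15 positive with all libraries and 4 without Ctrl 2, with a median of 0.33 (-0.072 without Ctrl 2, 0.64 without Ctrl 3). Lgr5 was at 3.77, 0.346 and 2.85 in Ctrl 1, 2 and 3 and 7.41 and 2.17 in KO 1 and 2, and Ascl2 at 5.58, 1.51 and 5.76 in Ctrl and 5.36 and 3.54 in KO. Smoc2 was at 18.8, 2.16 and 12.9 in Ctrl and 13.1 and 17.3 in KO. Axin2, a feedback target of Wnt, was at 16.1, 17.3 and 19.1 in Ctrl and 12.0 and 14.3 in KO, with KO below every Ctrl library. Markers of reserve and regenerating stem cells had 11 of 12 positive and a median of 0.26 (0.30 without Ctrl 2, 0.32 without Ctrl 3). Clu, which marks a damage-induced stem cell, was at 0.273, 0.233 and 0.677 in Ctrl 1, 2 and 3 and 9.07 and 1.51 in KO 1 and 2, with KO above every Ctrl library. Ly6a, of the same regenerating state, was at 0.534, 0 and 30.1 in Ctrl and 3.21 and 2.52 in KO, high in Ctrl 3 alone. Of 17 Wnt pathway genes 13 were positive, with a median of 0.27 (0.093 without Ctrl 2, 0.16 without Ctrl 3). Wls, which carries Wnt ligands to the surface, was at 5.40, 0.269 and 3.95 in Ctrl and 7.46 and 7.23 in KO, the receptor Fzd5 at 28.6, 19.5 and 22.6 in Ctrl and 30.1 and 36.0 in KO, and Tle3, a corepressor of Tcf factors, at 18.9, 23.9 and 18.7 in Ctrl 1, 2 and 3 and 13.4 and 10.6 in KO 1 and 2, with a log2 difference of -0.73 (-1.40 to -0.048) and -0.61 without Ctrl 2.

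Mitosis genes had 23 of 26 positive with all libraries and 11 without Ctrl 2, with a median of 0.48 (-0.065 without Ctrl 2, 0.63 without Ctrl 3). Mki67 was at 12.8, 3.45 and 12.2 in Ctrl and 9.59 and 11.7 in KO. Top2a was at 111, 7.62 and 77.6 in Ctrl and 47.1 and 119 in KO. Genes of DNA replication had a median of 0.038 (-0.33 without Ctrl 2, 0.27 without Ctrl 3) over 32 genes, 24 of them negative without Ctrl 2. Ccne1, cyclin E1, was at 6.09, 1.21 and 5.85 in Ctrl and 2.84 and 3.84 in KO, and Mcm2 at 9.41, 3.63 and 10.1 in Ctrl and 5.65 and 9.15 in KO. Rrm2 was at 25.8, 9.23 and 14.6 in Ctrl and 6.52 and 29.9 in KO. KO 1 was lower than Ctrl 1 and Ctrl 3 for these 3 genes, and KO 2 for Ccne1 and Mcm2.

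Ribosomal protein genes kept most of their positive median without Ctrl 2. Of 35 that passed the filter, 32 were positive and 12 had KO above every Ctrl library, beside 9.09% of all genes, and 7 did as deposited, beside 8.44%. The median was 0.46 (0.32 without Ctrl 2, 0.49 without Ctrl 3). Without Ctrl 2, 28 were positive. Rpl32 was at 106, 71.5 and 74.3 in Ctrl 1, 2 and 3 and 165 and 138 in KO 1 and 2, a log2 difference of 0.86 (0.23 to 1.50) and 0.76 without Ctrl 2, and Rpl18 at 111, 98.9 and 78.3 in Ctrl 1, 2 and 3 and 186 and 158 in KO 1 and 2, a log2 difference of 0.85 (0.13 to 1.56) and 0.87 without Ctrl 2. Rps14 was at 212, 215 and 104 in Ctrl and 296 and 352 in KO. Rpl10 was at 133, 139 and 102 in Ctrl and 191 and 202 in KO. Rps2 went the other way at 1089, 620.2 and 1253 in Ctrl 1, 2 and 3 and 527 and 349 in KO 1 and 2. The processed pseudogene Rps2-ps13, chosen with its values in view, was at 0.0861, 0 and 0 in Ctrl and 324 and 272 in KO, so the levels of Rps2 and its copy are uncertain. How reads were assigned between ribosomal genes and their pseudogenes is not given.

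Endoplasmic reticulum chaperones had 21 of 28 negative with and without Ctrl 2, with a median of -0.40 (-0.35 without Ctrl 2, -0.18 without Ctrl 3). Calr, a calcium-binding chaperone, was at 255, 288 and 559.9 in Ctrl 1, 2 and 3 and 224 and 214 in KO 1 and 2. Manf was at 63.9, 61.1 and 129 in Ctrl and 41.2 and 42.6 in KO, with KO below every Ctrl library and Ctrl 3 the highest. Hspa5 was at 157, 190.4 and 410.1 in Ctrl and 126 and 213 in KO, the sensor kinase Eif2ak3 at 13.0, 9.68 and 11.8 in Ctrl and 17.7 and 17.5 in KO and Xbp1, of secretory cells, at 93.3, 81.7 and 91.3 in Ctrl and 66.5 and 140.2 in KO. Cytosolic heat shock genes had a median of -0.22 (-0.41 without Ctrl 2, 0.11 without Ctrl 3) over 17 genes. Hsp90aa1 was at 466, 367 and 1698 in Ctrl 1, 2 and 3 and 325 and 438 in KO 1 and 2, so Ctrl 3 alone stood high.

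Interferon-response genes had 25 of 32 negative, with a median of -0.38 (-0.29 without Ctrl 2, -0.17 without Ctrl 3). Irf7, the factor that amplifies interferon, was at 16.6, 55.8 and 57.4 in Ctrl 1, 2 and 3 and 19.2 and 9.33 in KO 1 and 2, a log2 difference of -1.42 (-2.76 to -0.087) and -1.15 without Ctrl 2, and Ctrl 1 lay between the KO libraries. Mx1, an antiviral GTPase, was at 1.25, 6.43 and 4.17 in Ctrl 1, 2 and 3 and 0.698 and 1.19 in KO 1 and 2, a log2 difference of -1.20 (-2.37 to -0.024) and -0.82 without Ctrl 2. Isg15 was at 1.78, 5.99 and 13.5 in Ctrl and 2.19 and 1.22 in KO. Ifit1 was at 3.40, 39.8 and 13.2 in Ctrl and 2.38 and 7.51 in KO, with Ctrl 1 the lowest Ctrl library for Isg15 and Ifit1. Tap1, of antigen processing, was at 20.2, 22.7 and 35.4 in Ctrl and 21.3 and 30.3 in KO, and Irf1 at 32.8, 57.9 and 43.9 in Ctrl and 34.6 and 44.9 in KO, and both overlapped.

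Lists of general cell function complete the comparison. Junction genes had a median of 0.023 (-0.0030 without Ctrl 2, 0.15 without Ctrl 3) over 25 genes, with Cdh1 at 95.6, 97.0 and 145 in Ctrl and 119.8 and 95.1 in KO. Cldn7 was at 938, 1228 and 748 in Ctrl and 837 and 1693 in KO. Transcription factors of intestinal identity had a median of 0.039 (0.15 without Ctrl 2, 0.11 without Ctrl 3) over 23. Autophagy genes had -0.059 (0.058 without Ctrl 2, -0.11 without Ctrl 3) over 27, with the Paneth cell gene Atg16l1 at 13.7, 21.1 and 15.3 in Ctrl and 14.1 and 10.8 in KO. Apoptosis and necroptosis genes had -0.17 (0.0036 without Ctrl 2, -0.13 without Ctrl 3) over 27, with Casp8 at 31.6, 33.5 and 36.4 in Ctrl and 26.5 and 31.2 in KO and Ripk3, the kinase of necroptosis, at 5.13, 5.45 and 9.28 in Ctrl and 7.09 and 6.07 in KO. Immediate early genes had -0.17 (-0.030 without Ctrl 2, -0.31 without Ctrl 3) over 16, with Fos at 11.5, 89.5 and 8.69 in Ctrl and 5.48 and 19.6 in KO.

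**Figure D5:**
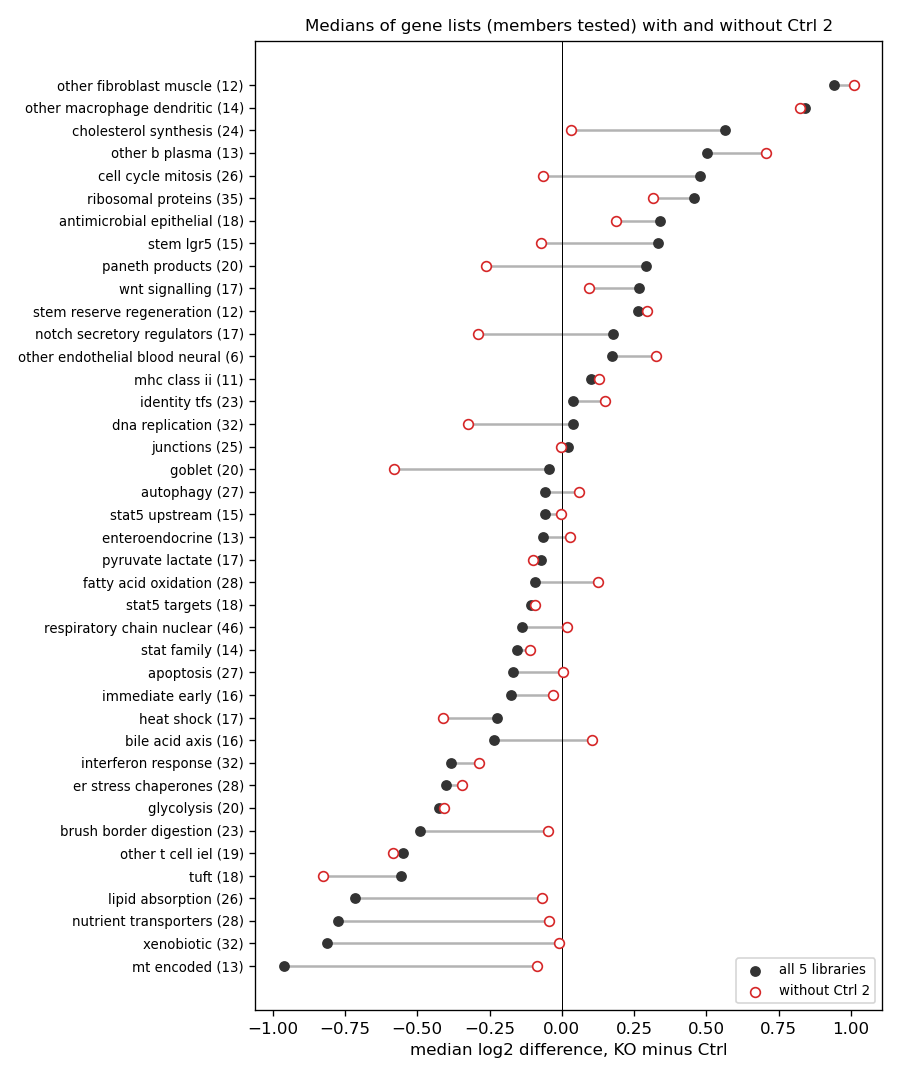
Median log2 difference, KO minus Ctrl (horizontal axis), of each gene list with at least 6 members tested (number in brackets), with all 5 libraries (black) and without Ctrl 2 (open red circles). The absorptive, mitochondrial, cholesterol and mitosis medians move to near 0 without Ctrl 2, the DNA replication median moves from 0.038 to -0.33, while the fibroblast, macrophage, B cell, T cell and glycolysis medians keep their sign and are at least 0.4 from 0 in both.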

How the data were processed

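TPM were deposited by the authors for each library, the unit being stated per the file headers except for Ctrl 1, whose unit follows from the others and its sum. The submitters' processing notes name TopHat, Cufflinks and mm10. The tool that gave the TPM and the annotation are unstated in these sources. Gene symbols came by ID from GENCODE M21 (GRCm38) for 27475 of 28987 IDs. TPM were divided by median-ratio factors over the 11146 genes above 0 in all 10 libraries, and a pseudocount of 1 was added. Limma 3.58.1 (R 4.3.3) with an intensity trend was fitted to 13056 genes in all 10 libraries with 3 group means, with Benjamini-Hochberg adjustment over all of them. Depth is unknown for all libraries, so no counting error is given. Members and gene lists were chosen with earlier results of these data known.

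Named were Stat5a, Stat5b and the title genes, chosen list members, the 2 members of each list with the smallest p, and the 12 protein-coding genes in each direction with the smallest p among those not overlapping between groups, scaled and as deposited, whose higher group averaged 5 scaled TPM or more, leaving out Gm, Rik and ribosomal protein genes and IDs without a symbol. Log2 differences with intervals are given for title and top genes and for Ms4a1. They are also given for the 2 smallest-p members of a list where their unadjusted p in limma was under 0.05. Other named members without an interval may also have an unadjusted p under 0.05. Named outside this rule, after their values were seen, were Bcl6, Ccl5, Cd22, Cdkn1a, Crat, Defa24, Igf1, Krt8, Manf, Mylk, Nkg7, Pfkfb3, Rps14, Sc5d, Slc25a20 and Slc9a3, and the pseudogene Rps2-ps13. Lists were described by counts and medians without a test. Of the listed symbols, 8 were not found by name. Alternatives were other scalings, pseudocounts, filters, fits and left-out libraries.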

Additional observations from a re-analysis of the deposited data

How the results depend on the processing

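The count of genes past an adjusted p of 0.05 in limma was 0 with all libraries and in 15 of 18 alternatives. It was 5 with no filter, all of them below 1 scaled TPM in all 5 libraries (Fkbp10, Pik3r6, Gp9, Gm12459 and an ID without a symbol). It was 1, the pseudogene Rps2-ps13, in a fit of only the 5 Ctrl and KO libraries, and ranged from 0 to 2 when single libraries were left out. The 2 were found without KO 1, where the lone KO 2 was assumed to vary like the other groups: the pseudogene Gm6863 (near 0 in KO 2 and 83.7 in KO 1) and an ID without a symbol. Without Ctrl 2 and Ctrl 3 together, 175 genes had an unadjusted p under 0.05 and 0 were called. The 1187 genes with KO above and 949 with KO below every Ctrl library became 1828 and 1705 without Ctrl 2 and 2174 and 1756 without Ctrl 3, where fewer libraries have to be cleared, and the lower count was 192 in values as deposited. Of 51 title, top and list genes with a fitted log2 difference, 48 kept their sign in every alternative that could be computed. Apart from Stat5a, Stat5b and the title genes, these were picked for lying apart or for a small p. Their signs thus had little room to turn, and the count is no measure of robustness. Over all genes, 24.6% turned without Ctrl 2. The 3 that changed sign were the title genes Gfi1, Sox9 and Tcf7l2. Gfi1 was -0.11 with array weights and -0.22 without Ctrl 2 and Ctrl 3, and ranged from -0.21 to 0.71 with single libraries left out. Sox9 ranged from -0.12 to 1.02, and Tcf7l2 from -0.63 to 0.11, with 0.21 as deposited. The cause was not tested. With the replicate number as a block (replicate block), 0 genes were called and the smallest adjusted p in limma was 0.152. Same-numbered Ctrl and KO libraries share a number in their titles. Their deviations from the group means correlated at -0.17 for number 1 and 0.064 for number 2. With 2 KO libraries the deviations of KO 1 and KO 2 mirror each other, so these correlations cannot show whether the libraries are pairs.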
